A study of Mus musculus with 30 samples.

Results

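The genes described here encode parts of the ubiquitin and proteasome system of the mouse. They were taken as all probes of the authors' value table whose symbol began with Psm, Ube, Usp, Fbxo, Fbxl, Fbxw, Rnf, Trim or Cul. This gave 81 genes, 1 probe each, out of 25030 probes in the table, of which 5622 had a symbol at all. By prefix there were 28 Psm, 14 Ube, 13 Usp, 13 Rnf, 4 Fbxo, 3 Fbxl, 3 Trim and 2 Fbxw genes and 1 Cul gene. The symbols came from 2 lists of the study, and 72 of the 81 genes were named in a list that orders genes by how little or how much they responded to perturbation in embryonic stem cells. The genes are therefore not a random draw of the family, and genes whose probe had no symbol were not analysed here.

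Expression was measured on 30 two-colour Agilent arrays of 15 adult tissues, 2 arrays each, to ask how far the expression of a gene differs between tissues. The tissues were 3 of the head (brain cortex, cerebellum and eyes), 4 of the digestive tract (liver, stomach, small intestine and large intestine), muscle and heart, lung, kidney and bladder, and bone, fat and skin. All mice were C57BL/6 males aged 28 weeks by the labels, with no treatment or allele named, and tissues of different animals were used except for bone and fat, which the series design describes as having 1 replication although 2 arrays carry each label. Cy3 carried the tissue and Cy5 a common reference pooled from cultured mouse cell lines and embryonic stem cells, without exchange of the dyes. Values are log2(Cy3/Cy5), so that 0 means the level of the reference, and a difference is the mean of a tissue minus the mean of the other 14 tissues, on the log2 scale. A gene was called higher or lower at an adjusted p under 0.05 and a difference of at least 1 in size (limma, Benjamini-Hochberg adjustment over all 21019 probes tested). In whole tissue, fewer cells of a type and less RNA per cell cannot be told apart.

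Ubiquitin is passed from an activating enzyme (E1) to a conjugating enzyme (E2) and, with the help of a ligase (E3), onto a substrate. Chains of ubiquitin mark many substrates for the 26S proteasome, in which a cylindrical 20S core of alpha and beta rings cuts proteins and a 19S regulatory particle binds, unfolds and feeds them into the core. The proteasome is needed in every cell, whereas ligases, which choose the substrates, are many and often restricted to a tissue. In skeletal muscle the pathway is best known for the breakdown of contractile proteins during wasting.

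Signals of these genes were clear. Between 80 and 81 of them lay well above background in Cy3 on every array, Ube2t being the exception, against 53.9 to 76.8% of all probes. Over these genes the 2 arrays of a tissue correlated with r of 0.951 or higher in 12 tissues (r = 0.995 in muscle), but with r = 0.682 in large intestine, 0.703 in bone and 0.735 in fat. Results in those 3 tissues rest on arrays that disagree. In cerebellum, eyes, liver, heart, kidney, bladder, skin and stomach both arrays lay on the same slide, so their agreement is within a slide. Liver and heart shared a slide with no other tissue, as did kidney and bladder. Their differences from the other tissues cannot be told apart from those of the slide. Markers of the labelled tissues were where they belonged for eyes (Pdc), liver (Serpinc1), skin (Krt10) and small intestine (Lct), though Krt10 was higher in stomach and Lct in cortex as well. The 6 markers of striated muscle were all called higher in muscle, but also in bone (summed linear ratio 272 and 268 on its arrays, against 294 and 434 in muscle), and 5 were in skin, 4 in eyes and 2 each in heart and large intestine. The part of such RNA in the results below was not tested.

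The share of genes that differed among the 15 tissues was close to that of all probes, and their ranges were narrower. By the moderated F-test 74 of 81 genes differed among tissues (91.4%, against 90.7% of all probes tested and 96.6% of probes above background on every array). The range between the highest and the lowest tissue mean had a median of 1.73 (quartiles 1.30 and 2.21) over the 81 genes and of 2.33 (quartiles 1.42 and 3.75) over all probes. Tissue specificity, as information in bits, had a median of 0.0702 over the genes and 0.159 over all probes. The largest value among the genes was 0.705 bits, for Rnf152, while 2170 of the 21019 probes reached 1 bit. Of the 1215 comparisons of a gene with a tissue, 61 were called higher (5.02%, against 10.6% over all probes) and 40 lower (3.29%, against 9.63%). A call was made for 47 genes, in 1 tissue for 23 of them and in both directions for 19. Of the 81 genes 80 were above background on every array, against 11751 of the 21019 probes. Range, bits and total calls were not compared with those probes alone.

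The largest counts were those of muscle and large intestine. In muscle 20 of 81 genes were higher (24.7%), against 10.6% of all probes and 13.5% of probes above background on every array. In large intestine 20 genes were lower (24.7%), against 11.2% of all probes and 14.7% of the probes above background throughout. In the cortex 10 genes were higher (12.3%), against 15.1% of probes, and in cerebellum 6 against 13.5%. In bone 5 genes were higher (8.5% of probes) and in fat 5 (6.43% of probes). No more than 3 genes were higher in any other tissue, and in liver 1 was, against 11.3% of probes. In cerebellum 1 gene was lower, against 14.9% of probes. None was called lower by limma in eyes, small intestine or stomach (6.95%, 9.77% and 5.34% of probes), where 15, 24 and 10 genes were lower at an unadjusted p under 0.05. In muscle 5 genes were lower (6.17%), against 15.9% of all probes and 18.3% of those above background on every array. This count rose with slide or scan day as a fixed block, as given at the end.

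**Figure D1:**
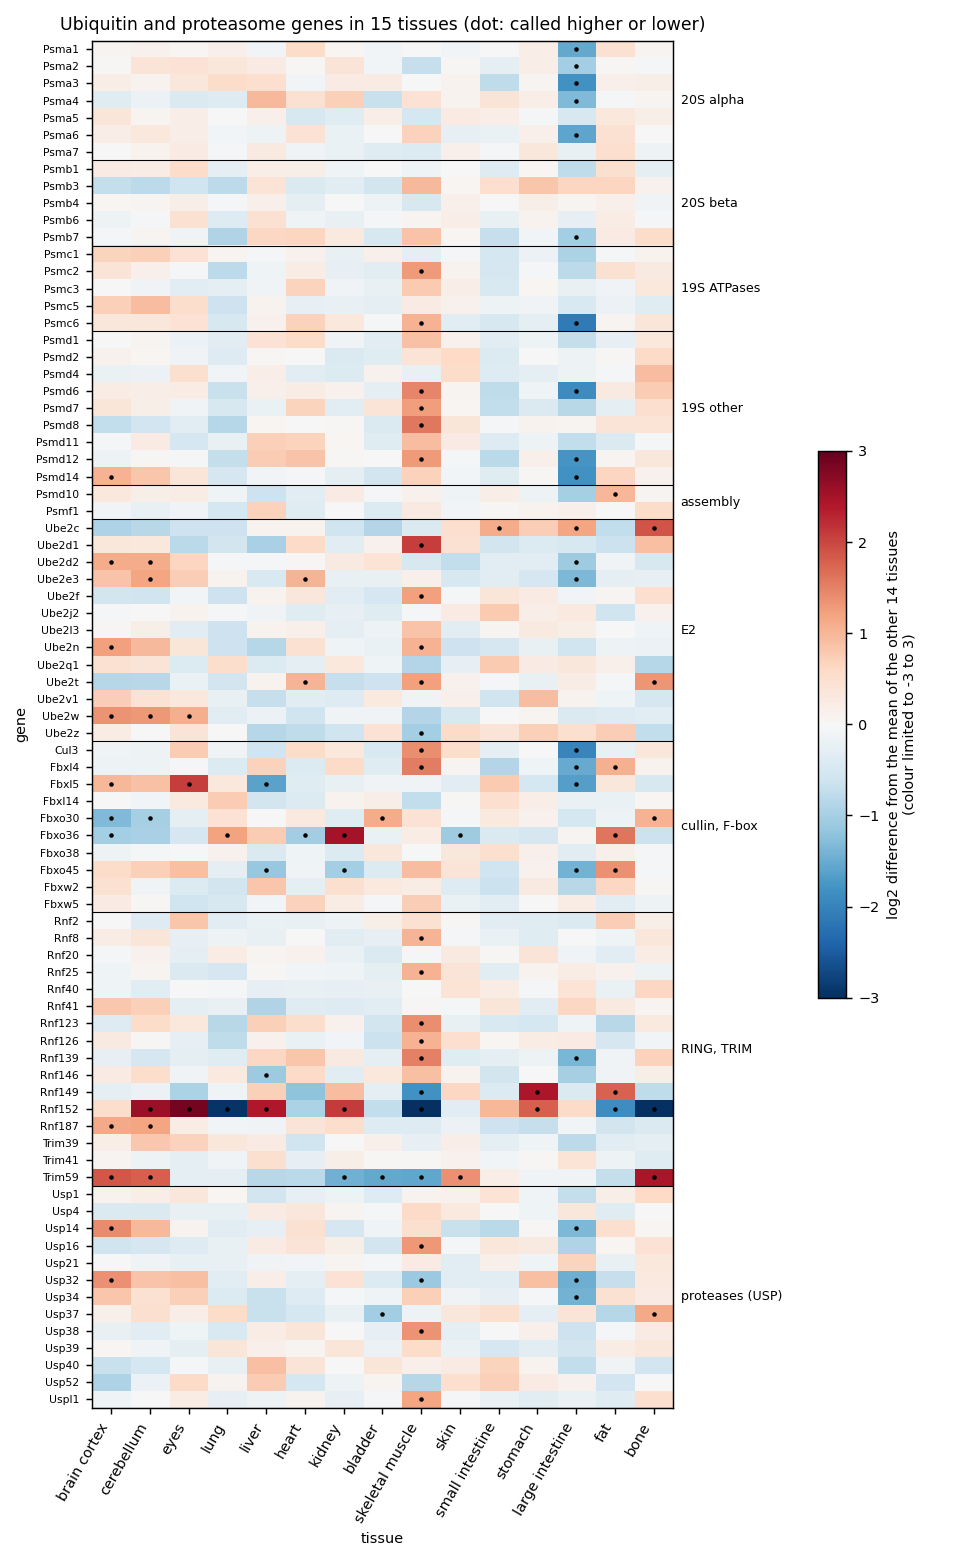
Difference of each of 80 of the 81 genes (rows, by role) in each of the 15 tissues (columns) from the mean of the other tissues, on the log2 scale by colour. Dots mark calls, and the columns of muscle (20 higher) and large intestine (20 lower) hold more of them than the columns of any other tissue.

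The 26 proteasome subunits with a symbol split in muscle between the regulatory particle and the core. Not every subunit of either part was among them. Of the 14 subunits of the 19S particle that were analysed 6 were higher in muscle, with both muscle arrays above all arrays of other tissues for each. They were Psmc2 and Psmc6, which belong to the ATPase ring that unfolds substrates, and Psmd6, Psmd7, Psmd8 and Psmd12, which belong to the lid. None of the 12 analysed subunits of the 20S core was called higher by limma. At an unadjusted p under 0.05, 2 core subunits were higher and 4 lower, and the same numbers passed after adjustment with differences smaller than 1.

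Psmd8 (chr7:29174187-29180673 in GRCm38.p6) had the largest difference among the subunits, with log2 ratios of 1.32 and 1.24 on the muscle arrays against a mean of -0.30 in the other tissues. It was 2.99-fold higher (difference 1.58, SE 0.15, adjusted p = 1.1e-07, limma). Psmd6, with 1.05 and 1.09, was 2.77-fold higher (difference 1.47, SE 0.33, adjusted p = 0.000926, limma). For both genes the muscle arrays lay close together and far above the arrays of all other tissues.

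Psmd7, the partner of the deubiquitinating subunit Psmd14, was at 1.13 and 0.98 in muscle (difference 1.25, adjusted p = 2.82e-07, limma). The ATPase Psmc2 was at 0.70 and 0.64 (difference 1.28, adjusted p = 4.23e-05, limma), and Psmd12 at 0.70 and 0.62 (difference 1.28, adjusted p = 0.000178, limma). Psmc6 lay at the limit of a call, at 0.37 and 0.41 (difference 1.04, adjusted p = 0.0242, limma). It lost the call when either muscle array was left out. The same held with slide as a random block, with scan day as a fixed block and in the fit without large intestine, fat and bone. Psmd14 itself, at -0.25 and -0.30, was not called (difference 0.70, adjusted p = 0.108, limma).

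Others of the 19S particle had smaller positive differences that passed the test but not the size required. The base scaffold subunits Psmd1 (0.87) and Psmd2 (0.41), the ATPase Psmc3 (0.77) and the lid subunit Psmd11 (0.92) were of this kind. Only the ATPase Psmc1 (-0.27) and the ubiquitin receptor Psmd4 (-0.22) had differences below 0, neither past the test. Over the 14 subunits the median difference in muscle was 0.89 (range -0.27 to 1.58), beside -0.14 over all probes tested.

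The core subunits moved in both directions. Psmb3 (log2 ratios -0.07 and -0.01, difference 0.97) and Psmb7, the trypsin-like catalytic subunit (0.61 and 0.65, difference 0.86), were above the other tissues but short of a call. The alpha subunits Psma2 (difference -0.70), Psma5 (-0.54) and Psma7 (-0.40) and the beta subunit Psmb4 (-0.48) lay below the other tissues with adjusted p-values of 0.00576, 0.0148, 0.038 and 0.00264 (limma). The median over the 12 core subunits was -0.01 (range -0.70 to 0.97), and its direction depends on the scaling. It was 0.74 when arrays were only centred on their median (4 core and 11 regulatory subunits called higher), 0.33 from Cy3 alone and 0.25 from the scanner's processed signals (2 core subunits called in each).

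The distance between the 2 parts of the proteasome stayed above 0 in muscle with each scaling. The median difference of the 19S subunits minus that of the 20S subunits was 0.91 in muscle and between -0.42 (lung) and 0.29 (bone) in the 14 other tissues, with heart at 0.25. In muscle it was 0.63 with median centring, 0.72 from Cy3 alone and 0.87 from the processed signals. It was 1.00 with slide as a fixed block, a fit whose limits are given below. Leaving out 1 array gave 0.85 to 0.98. Psmd10, an assembly chaperone (difference 0.13), and Psmf1, an inhibitor of the core (0.27), were not called in muscle.

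Slides limit this result. Arrays of 1 slide were alike (correlation within a slide 0.693 when slide was taken as a random block), and muscle replicate 1 had no other tissue on its slide. Replicate 2 shared its slide with 3 arrays of skin and small intestine, and against these alone the median was 0.83 for the 19S and -0.04 for the 20S subunits. Against the 8 arrays scanned on the same day the medians were 1.02 and 1.05 for the 19S subunits and 0.07 and 0.02 for the 20S subunits, for the 2 muscle arrays. Slide was also taken as a fixed block, which left 8 residual degrees of freedom. Tissues and slides form separate groups that share neither, liver with heart and kidney with bladder for example. Muscle minus all other tissues is therefore not fixed by the data with this block. The fit took some slides as equal, and its muscle values rest on that choice and on replicate 2. Muscle is linked to bone and fat only through the 2 large intestine arrays, which disagree. In this fit Psmd8 (1.74) was the only 1 of the 6 regulatory subunits to keep its call. Psmc2 (1.12, adjusted p = 0.0968, limma) and Psmd7 (0.84) lost theirs, the differences of Psmc6 (-1.07), Psmd12 (-0.26) and Psmd6 (-0.17) turned negative, and Psmc3 (1.14) gained a call. The medians fell with it to 0.18 for the 19S and -0.81 for the 20S subunits. The same block in the 12 tissues with concordant arrays, where the groups are separate too, again kept Psmd8 alone of the 6 (1.37) and called Psmd1 (1.04) besides. All 6 differences were then above 0, from 0.25 (Psmc6) to 1.37, with the median at 0.67 for the 19S and -0.49 for the 20S subunits.

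**Figure D2:**
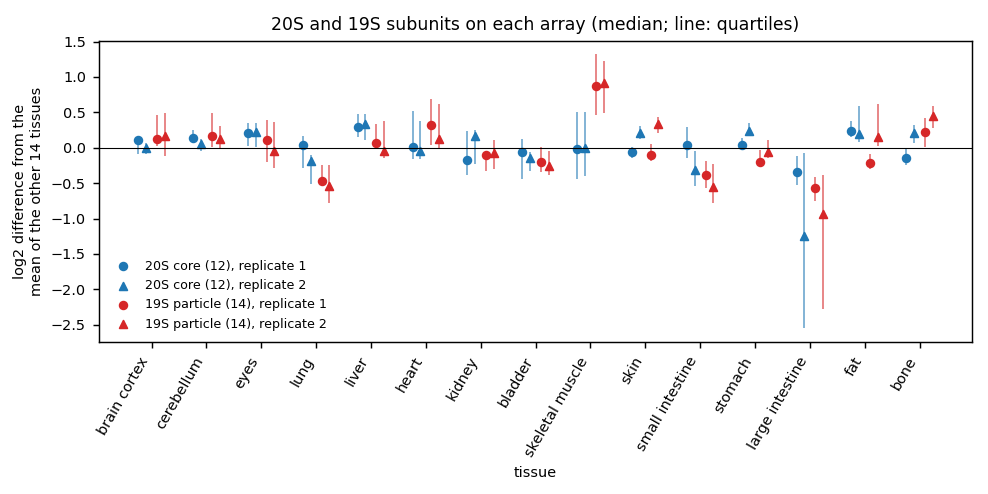
Median over the 14 19S subunits and over the 12 20S subunits on each of the 30 arrays, as log2 ratio minus the mean of the other tissues. The 19S medians of both muscle arrays (0.88 and 0.91) lie above those of all other arrays, and large intestine replicate 2 lies lowest for the 20S subunits.

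The promoters of the 2 parts of the proteasome were also compared. RefSeq promoters (GRCm38.p6) were at hand for 65 of the 81 genes, 12 of them 19S and 10 of them 20S subunits. The letters CCGGAAG, on either strand, are the core that transcription factors of the ETS family are known to bind. They were found in the 250 bases before the start of 8 of 12 19S genes (66.7%: Psmc1, Psmc2, Psmc6, Psmd2, Psmd4, Psmd6, Psmd11 and Psmd12), 0 of 10 20S genes, 9 of the 43 other genes (20.9%) and 7.05% of all 27025 genes. In 7 of the 8 the motif lay within 100 bases of the start. Among genes called higher in muscle 9 of 17 held it (52.9%), and among the rest 8 of 48 (16.7%), and of the 8 19S genes with the motif 4 were called. Psmc1, Psmd2, Psmd4 and Psmd11 held it and were not called, and Psmd8, with the largest difference in muscle among the subunits, did not hold it. Since 72 of the 81 genes came from a list ordered by response to perturbation, all genes are an unlike background for these shares. The motif was one of 5 chosen after the expression values were seen, and a match is a description of letters, not of binding. The last 120 bases before the start are shown for 4 called 19S genes that hold it and, for contrast, the core gene Psma2 that does not, 5′ to 3′ with the motif in capitals.

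Psmc2 (chr5:21785155-21785274, plus strand): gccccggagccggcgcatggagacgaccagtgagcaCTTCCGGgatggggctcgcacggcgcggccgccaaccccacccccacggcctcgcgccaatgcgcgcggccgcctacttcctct

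Psmc6 (chr14:45329704-45329823, plus strand): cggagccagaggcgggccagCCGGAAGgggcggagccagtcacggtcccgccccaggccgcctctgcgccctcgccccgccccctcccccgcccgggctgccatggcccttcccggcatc

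Psmd6 (chr14:14120946-14121065, minus strand): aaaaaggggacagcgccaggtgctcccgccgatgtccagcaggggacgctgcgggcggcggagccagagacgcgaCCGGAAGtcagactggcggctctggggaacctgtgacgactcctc

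Psmd12 (chr11:107479408-107479527, plus strand): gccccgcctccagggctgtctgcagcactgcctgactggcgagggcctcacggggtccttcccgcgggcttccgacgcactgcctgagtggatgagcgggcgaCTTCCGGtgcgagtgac

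Psma2 (chr13:14613122-14613241, plus strand): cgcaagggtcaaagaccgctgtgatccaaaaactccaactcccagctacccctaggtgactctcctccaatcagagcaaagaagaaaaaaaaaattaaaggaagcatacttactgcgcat

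The other 4 motifs were not spread in this way. CCAAT, the CCAAT box, was found in 4 of 12 19S and 6 of 10 20S promoters (34.5% of all genes). TGACNNNGC, the core of the antioxidant response element, was found in 2 and 1 (10.1% of all genes). CAGCTG, an E-box bound by muscle regulators, was found in 1 and 0 (12.8%), and TATTTTTA, an AT run like the site of MEF2 factors, in none of the 65 (2.48% of all genes).

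Across all 15 tissues the patterns of the 19S subunits were closer to each other than those of the 20S subunits. The median Pearson r of pairs of genes over the 15 tissue means was 0.547 for the 91 pairs of 19S subunits and 0.345 for the 66 pairs of 20S subunits, and 0.263 between the groups. The median over all pairs of probes tested was -0.015, and that over the 55 genes that are not subunits 0.0501. Without large intestine the values were 0.532 for the 19S, 0.151 for the 20S and 0.101 between them. The tissues and arrays are shared by all these pairs, and the values are descriptions. The subunits least like the others were Psmb4 (mean r -0.123) and Psmb3 (mean r -0.0431). This order rests on large intestine, without which Psma5 (-0.119) and Psma2 (-0.115) were lowest, Psmb4 was at -0.0812 and Psmb3 at 0.0947. Psmb4 had the smallest range of all 81 genes, 0.62, from -0.75 in muscle to -0.13 in eyes, and did not pass the F-test (adjusted p = 0.0622, limma). Psmb3 was lowest in cerebellum (-1.48 and -1.87) and highest in muscle.

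In large intestine the lower calls came from 1 of the 2 arrays. Of the 20 genes, 6 were 20S subunits (Psma1, Psma2, Psma3, Psma4, Psma6 and Psmb7) and 4 were 19S subunits (Psmc6, Psmd6, Psmd12 and Psmd14). The others were Cul3, Fbxl4, Fbxl5, Fbxo45, Rnf139, Ube2d2, Ube2e3, Usp14, Usp32 and Usp34. Over the 20 genes replicate 1 read from -1.82 (Usp14) to 0.33 (Fbxl4) and replicate 2 from -3.82 (Psmc6) to -1.14 (Fbxl4), and replicate 2 was the lower for each. Without replicate 2 none of the 81 genes was called lower by limma (29 were lower at an unadjusted p under 0.05 and 21 after adjustment, with differences smaller than 1 in size), and without replicate 1 there were 34. All 20 differences stayed below 0 without replicate 2, and 11 of them kept an adjusted p under 0.05.

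Psma1, of the alpha ring, was at -0.76 on replicate 1 and -3.41 on replicate 2, and the mean of the other tissues was -0.56. Psmc6 was at -1.28 and -3.82, against -0.44. For Psma1 the first array lay near the other tissues and only the second far below them. Replicate 2 was lower than replicate 1 by 1 or more for 30 of the 81 genes and higher by as much for 3. The median gap was -0.57, beside -0.03 over all probes, 16.3% of which were lower by 1 or more. The gap was uneven within the proteasome, with a median of -2.15 over the 7 alpha subunits (6 of them lower by 1 or more) and of 0.38 over the 5 beta subunits (0 lower by 1 or more).

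The gap went with the base composition of the probes. Over all probes it correlated with the share of G and C in the 60-base probe with r = 0.386, over the 81 genes with r = 0.304 and over the 26 subunits with r = 0.543, while in the other tissues the gap between the 2 arrays gave between -0.11 (bone) and 0.185 (liver) over all probes. Over the subunits alone the value was not particular to large intestine, since the cortex, whose arrays were alike, gave r = 0.521 and muscle 0.0564. Median gaps ran from -0.45 for probes with up to 35% G and C to 0.39 for those above 55%, and for these genes from -0.98 to 0.97. With each array centred within classes of G and C content 20 genes were called lower in large intestine, 19 of them among the 20 above, and Psma2 (-0.81) lost its call. The probes of Psmc6 (35% G and C) and Psma1 (40%), with gaps of -2.54 and -2.66, and of the beta subunits Psmb6 (51.7%) and Psmb3 (61.7%), with gaps of 0.55 and 0.47, are shown for their composition, with G and C in capitals.

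Psmc6: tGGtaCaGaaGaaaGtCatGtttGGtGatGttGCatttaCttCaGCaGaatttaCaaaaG

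Psma1: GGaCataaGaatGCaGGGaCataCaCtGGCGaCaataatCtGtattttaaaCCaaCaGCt

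Psmb6: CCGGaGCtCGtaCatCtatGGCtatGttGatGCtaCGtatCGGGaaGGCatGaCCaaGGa

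Psmb3: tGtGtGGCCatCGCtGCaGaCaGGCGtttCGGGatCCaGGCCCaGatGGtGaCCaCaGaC

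**Figure D3:**
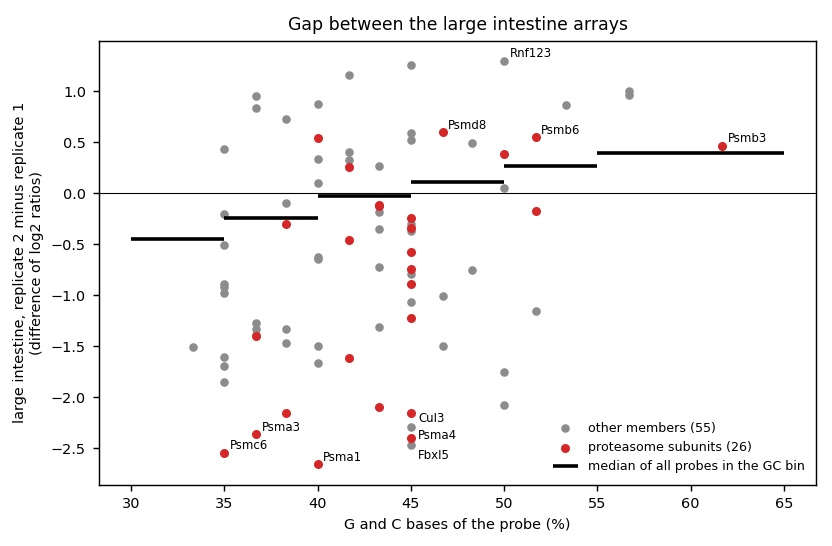
Gap between the 2 large intestine arrays (replicate 2 minus replicate 1, log2) against the percent of G and C in the probe, for the 81 genes (proteasome subunits in red and the others in grey), with the median of all probes in classes of composition as lines. Psma1 and Psmc6 lie at the lower edge, Psmb3 and Psmb6 above 0, and the median of all probes rises from -0.45 to 0.39.

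Among the 14 conjugating enzymes all differed among tissues, and Ube2d1, a widely used E2 that works with many RING ligases, had the largest difference, in muscle. The gene lies at chr10:71254980-71285384. It was at 2.09 and 2.15 there and between -0.73 and 1.05 on the arrays of all other tissues, bone (1.05 and 1.01) and heart (0.68 and 0.78) coming next. The difference was 2.06 (SE 0.11, adjusted p = 1.2e-10, limma), or 4.18-fold, and it stayed at 2.03 or higher under every alternative computed for it. Its close relative Ube2d2 was higher in cortex (1.39 and 1.19) and cerebellum (1.27 and 1.31) instead, by 1.11 and 1.10.

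Ube2f, an E2 for the ubiquitin-like protein NEDD8 that activates cullins, was at 1.34 and 1.40 in muscle (difference 1.22, adjusted p = 4.5e-06, limma). With slide as a fixed block its difference was 0.65 (adjusted p = 0.231, limma), and 1.26, again called, in 12 tissues. Ube2n, which builds chains linked through lysine 63, was higher in cortex (1.19 and 1.38, difference 1.22) and in muscle (1.20 and 1.02, difference 1.03, or 0.46 and no call with the slide block). Ube2t, known from the repair of DNA crosslinks, was higher in muscle (-1.25 and -1.10), heart (-1.36 and -1.40) and bone (-1.37 and -0.81), by 1.24, 1.02 and 1.33. These are the tissues where the summed markers of striated muscle were highest together with skin, in which Ube2t (-2.26 and -2.17) was not called. In bone the 23 markers of dividing cells were all called higher as well. The part of either cell type was not tested, and Ube2t was above background on 28 of the 30 arrays. Ube2z, which is charged by the E1 enzyme Uba6, was lower in muscle (-1.33 and -1.29, difference -1.01).

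Other E2 enzymes were higher in the brain and eyes. Ube2w, which attaches ubiquitin to the amino terminus of substrates, was at 1.57 and 1.50 in cortex, 1.50 and 1.46 in cerebellum and 1.02 and 1.56 in eyes, with differences of 1.36, 1.30 and 1.09. On no array of the other 12 tissues did it exceed 0.43. Ube2e3 was highest in cerebellum (0.95 and 1.07, difference 1.19) and also higher in heart (0.89 and 0.81, 9.68% of probes being higher in heart).

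Ube2c, the E2 of the anaphase-promoting complex in mitosis, was higher in bone and both intestines. It was at 0.04 and -1.74 in bone, -1.63 and -1.53 in small intestine and -1.68 and -1.35 in large intestine, and at or below -1.89 on every array of the other 12 tissues. The differences were 1.89, 1.11 and 1.17 (11.2% of probes were higher in small intestine and 10.7% in large intestine). The 23 markers of dividing cells were all called higher in bone, with summed linear ratios of 17.8 and 9.28 on its arrays against 2.06 to 7.17 elsewhere, and 8 of 23 were in each intestine. Without bone replicate 1 the difference of Ube2c in bone was 0.9986, just short of a call. The same array of bone was the higher one for Ube2c and for these markers, and the part of dividing cells in the result was not tested.

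Among the cullin and F-box proteins, which form modular ligases, tissue differences were wider, with a median range of 2.44 over the 10 genes. This leans on large intestine, where Cul3, Fbxl4, Fbxl5, Fbxo45 and Fbxw2 had their lowest mean. Its replicate 2 read lower than replicate 1 by 1 or more for 7 of the 10. Cul3, the cullin that recruits BTB proteins, was highest in muscle (1.56 and 1.48, difference 1.40, adjusted p = 0.000704, limma). Its difference turned to -0.87 with slide as a fixed block. Fbxl4, a protein of mitochondria, was higher in muscle (2.51 and 2.35, difference 1.53, or 0.05 and no call with that block) and in fat (1.56 and 2.46, difference 1.07), where the second array reached the level of muscle and the call was lost without it (0.62, adjusted p = 0.112, limma).

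Fbxl5, which senses iron and directs the breakdown of iron regulatory proteins, was highest in eyes (2.22 and 2.46). The difference was 2.08 (adjusted p = 9.05e-05, limma), or 4.23-fold, and 3 of the 81 genes were higher in eyes against 13.1% of probes. It was also higher in cortex, by 1.00, and lower in liver (-0.94 and -1.26, difference -1.61), where 3 genes were lower against 14.9% of probes. Liver lay below every array of the other tissues but replicate 2 of large intestine (-2.38).

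Fbxo36 (chr1:84839841-84900487), an F-box protein, was highest in kidney, at 2.29 and 2.20 (difference 2.50, adjusted p = 3.09e-08, limma), or 5.65-fold above the other tissues and above all their arrays. In kidney 2 genes were higher, against 9.81% of probes. Fbxo36 was higher in fat (1.48 and 1.36) and lung (0.68 and 1.38) as well, by 1.61 and 1.20 (12% of probes were higher in lung). It was lower in cortex, heart and skin, with differences of -1.01, -1.05 and -1.06 (14.2%, 9.16% and 6.18% of probes). Fbxo45, known from synapses and the growth of axons, was lower in liver (-0.89 and -0.91, difference -1.14) and kidney (-0.95 and -0.62, difference -1.02). It was higher in fat by call (0.85 and 2.04, difference 1.37). That call rested on replicate 2, without which the difference was 0.77, and replicate 1 of fat lay between the arrays of cerebellum (0.94 and 0.73). Cerebellum and cortex (0.65 and 0.73) were not called. The third gene lower in liver was the RING ligase Rnf146 (-0.53 and -0.35, difference -1.08).

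The 16 RING and TRIM ligases held both the widest and some of the narrowest ranges. Rnf152 (chr1:105276917-105356991), a ligase of lysosomes that acts on the nutrient-sensing mTORC1 pathway, had the widest, 6.01, from 1.23 in bone to 7.25 in eyes, beyond 94.2% of all probes. Its arrays read 7.41 and 7.08 in eyes, 7.0 and 6.95 in cerebellum, 6.58 and 7.03 in liver, 6.62 and 6.41 in kidney and 6.28 and 6.20 in stomach, all called higher. It was lower in muscle (1.33 and 1.35), bone (1.77 and 0.69), lung (1.66 and 1.98) and fat (3.74 and 1.89), with differences of -3.45, -3.57, -2.93 and -1.87 (7.95%, 7.56% and 5.37% of probes were lower in bone, lung and fat). The arrays of eyes lay just above those of cerebellum, and liver overlapped both cerebellum and kidney, so their order is not resolved. All 10 arrays of the tissues called higher lay above all 8 arrays of those called lower.

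**Figure D4:**
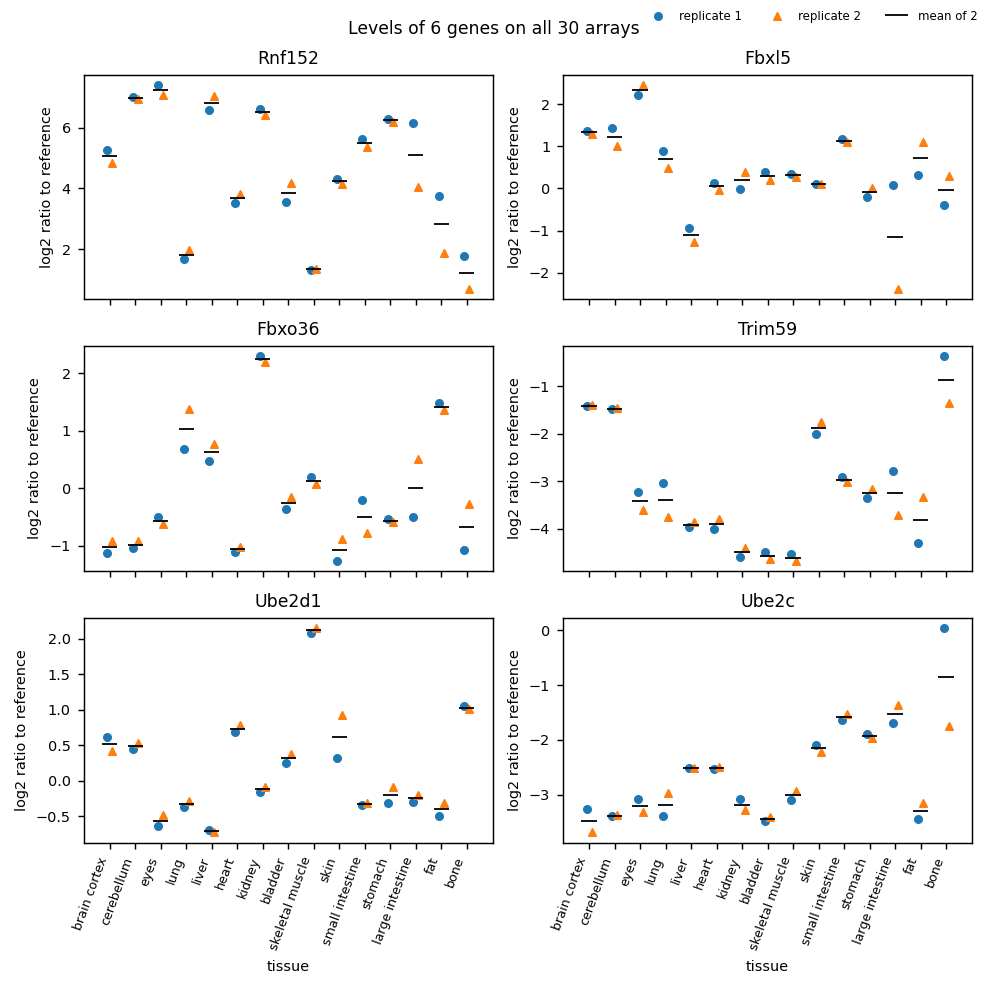
Log2(Cy3/Cy5) on both arrays of all 15 tissues for Rnf152, Fbxl5, Fbxo36, Trim59, Ube2d1 and Ube2c, with the mean of each tissue. Muscle stands alone for Ube2d1 (2.09 and 2.15) and kidney leads for Fbxo36 (2.29 and 2.20).

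Of the RING ligases, 5 were higher in muscle, with both arrays above those of all other tissues. Rnf123, which acts on the cell cycle inhibitor p27, was at 2.35 and 2.31 (difference 1.40, adjusted p = 4.37e-05, limma). Rnf139, of the endoplasmic reticulum, was at 1.66 and 1.73 (difference 1.52), but its difference was 0.08 with slide as a fixed block (adjusted p = 0.865, limma) and 1.19, again called, with that block in 12 tissues. Rnf126, which clears mislocalised proteins with BAG6 (0.09 and 0.29, difference 1.04), Rnf25 (1.25 and 1.26, difference 1.04) and Rnf8, known from the DNA damage response (0.91 and 1.13, difference 1.01), lay near the limit. Rnf25 and Rnf8 fell short of it with median centring (0.78 and 0.94). Rnf126 (0.94) and Rnf8 (0.90) did so without muscle replicate 2, and Rnf25 with arrays centred by G and C content of the probes.

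Rnf149 was the reverse, lowest in muscle (-2.10 and -1.98, difference -1.82, adjusted p = 0.00677, limma) and higher in stomach (1.77 and 2.07, difference 2.43), where 2 genes were higher against 9.23% of probes. Without either muscle array its lower call was lost (adjusted p = 0.0731 and 0.0589). In fat its arrays read 3.19 and -0.58, so that the call there (difference 1.77) rested on 1 array.

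Trim59, a TRIM ligase of membranes, was highest in bone (-0.37 and -1.34) and next in cortex (-1.42 and -1.40) and cerebellum (-1.48 and -1.45). The differences were 2.45 (adjusted p = 2.97e-07, limma), 1.86 and 1.80, and skin followed with 1.36 (9.77% of probes were higher in skin). Muscle (-4.54 and -4.67), kidney and bladder were lower, by differences of -1.57, -1.45 and -1.53 (9.47% of probes were lower in kidney and 5.74% in bladder). Ptprc, the marker of blood-derived cells, was higher in bone, lung and small intestine, and its part in the bone values was not tested. Rnf187 was higher in cortex and cerebellum, by 1.14 and 1.19. At the other end Rnf20, a ligase of histone H2B, and Trim41 had ranges of 0.76 and 0.77, at the percentiles 8.41 and 8.59 of all probes.

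Of the 13 ubiquitin-specific proteases and relatives, 3 were higher in muscle above all other arrays. Usp16, which removes ubiquitin from histone H2A, was at 1.21 and 1.22 (difference 1.31), Usp38 at 1.39 and 1.38 (difference 1.35) and Uspl1, a SUMO protease, at 0.61 and 0.58 (difference 1.17), with adjusted p-values of 6.99e-05, 5.37e-06 and 5.38e-07 (limma). With slide as a fixed block the differences of Usp16 (-0.22) and Usp38 (0.06) lost their calls, also in 12 tissues (0.81 and 0.996), whereas Uspl1 kept its own (1.67). Uspl1 fell just short of a call with median centring (0.989). In cortex the leading genes were Usp14, a protease bound to the 19S particle (0.16 and 0.04, difference 1.42), and Usp32 (2.13 and 1.79, difference 1.37), both above all arrays of other tissues. Psmd14, the protease within the 19S particle, was higher in cortex too (0.06 and 0.04, difference 1.05, adjusted p = 0.0177, limma).

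Usp32 was lower in muscle (-0.33 and -0.40, difference -1.12). Usp37, which acts in the cell cycle, was higher in bone (-0.07 and -0.60, difference 1.15) and lower in bladder (-2.57 and -2.17, difference -1.04). Fbxo30, a ligase of the bone morphogenetic protein pathway, was lower in cortex (-1.54 and -1.49, difference -1.31) and cerebellum (-1.08 and -1.37, difference -1.01). It was higher in bone (1.02 and 0.36) and in bladder (0.62 and 0.89), where 7.89% of probes were. Without bone replicate 1 neither Usp37 (0.88) nor Fbxo30 (0.72) was called in bone. Usp52 is an older symbol of Pan2, an RNA-degrading enzyme, and passed the F-test without a call in any tissue. Psmd10 was higher in fat (0.69 and -0.07, difference 1.01) and lost the call without fat replicate 1 (0.63, adjusted p = 0.211).

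Of the 20 genes higher in muscle, 17 had both arrays above all arrays of other tissues. The exceptions were Fbxl4, Ube2n and Ube2t. Of the 20, Ube2t was also called higher in bone and in heart, and Fbxl4 in fat and Ube2n in cortex, where 8.5%, 9.68%, 6.43% and 15.1% of probes were higher. With slide as a fixed block, under the limits given above, 8 of the 20 calls were kept (Psmd8, Rnf8, Rnf25, Rnf123, Rnf126, Ube2d1, Ube2t and Uspl1), and 5 of the other 12 differences fell below 0. With that block in the 12 tissues with concordant arrays 11 of the 20 were kept and none fell below 0.

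A list of 67 other genes of the pathway with other symbols, from E1 enzymes to the anaphase-promoting complex, the COP9 signalosome and MARCH ligases, was counted in the same way. Of the 67, 63 differed among tissues (94%), with a median range of 1.77, and of 1005 comparisons 39 were called higher and 36 lower. Over all probes 90.7% differed, the median range was 2.33, and 10.6% of comparisons were called higher and 9.63% lower. In muscle 10 were higher and 4 lower (10.6% and 15.9% of probes). In large intestine 17 were lower (11.2% of probes), and there too the arrays differed for some, Uchl5 being at -1.99 and -3.84 and the elongin Tceb1 at -1.11 and -3.14. The largest differences among calls were those of March1, a ligase that acts on MHC class II, in eyes (4.83 and 5.17, difference 2.48), of the deubiquitinase Otud3 in muscle (2.07 and 1.96, difference 2.33), of Dcun1d2, which helps attach NEDD8 to cullins, in muscle (3.10 and 3.10, difference 2.26) and of March11 in cerebellum (2.38 and 2.19, difference 2.22). Partners of the proteasome in this list were not called in muscle: the 19S receptor Adrm1 had a difference of 0.23 (adjusted p = 0.0663), the 19S-bound protease Uchl5 of 0.34 (adjusted p = 0.318) and the core chaperone Pomp of -0.15 (adjusted p = 0.541, limma).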

How the data were processed

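Total RNA of each tissue was labelled with Cy3 and hybridised with a Cy5-labelled common reference. The deposited scanner files hold, per spot, mean signal and local background of both channels as intensity in scanner units, the scanner's processed signals, and flags for outlier, saturated and above-background spots (other values, set by the authors' software). The authors' value table of 25030 probes is on a log10 scale. Over 11596 bright probes it followed log10 of the processed Cy3 signal (slope 0.998) and, inversely, how far log10 of the Cy5 signal departed from its mean over arrays (slope -0.997), so it holds a Cy3 level adjusted for the reference. It was used for the set of probes and as an alternative.

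Background was corrected by normexp (offset 50), control and outlier-flagged spots got weight 0 in loess within each array, flagged values were left out, spots of a probe were averaged, and log2(Cy3/Cy5) was taken. A probe was kept if it was well above background in Cy3 on both arrays of at least 1 tissue (21019 probes, 84.0% of the table). The fit used limma 3.58.1 (R 4.3.3), 1 coefficient per tissue and 15 residual degrees of freedom. Two-sided contrasts set each tissue against the average of the other 14, and the Benjamini-Hochberg method was applied within every comparison. P-values measure the spread between 2 arrays per tissue, pooled over tissues. For tissues whose arrays shared a slide, that spread leaves out differences between slides. The number of arrays limits the precision. The arrays came from 11 slides scanned on 5 days. The procedure was tested on simulated data.

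Symbols came from the study's probe lists, and positions, current names (79 of 81 symbols were current, Ube2d2 is now Ube2d2a and Usp52 is now Pan2) and promoters from RefSeq tables of GRCm38.p6. Places of probes within transcripts were not used here. Information in bits is log2 of 15 minus the Shannon entropy of linear tissue levels. Genes were named in full if called in a tissue with both arrays outside the range of all arrays of the other tissues, if among the 10 widest or 5 narrowest ranges, or, for the list of other pathway genes, if among the 4 largest called differences; other genes were named after their values were seen. The values of 1 gene are not reported here, though it is part of every count. The members and lists were chosen with earlier results of these data known. Alternatives covered scaling, filter, slide, scan day, array weights, replicate block, probe composition, size of a call and each array left out.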

Additional observations from a re-analysis of the deposited data

How the results depend on the processing

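Of 317 counts recomputed under alternatives, 295 stayed within 1.5 times the value given, and of 500 recomputed values of the 30 differences named by the rule, 460 kept their call, 35 lost it with the same direction and 5 reversed. The reversals all came from slide as a fixed block, in muscle: Cul3 -0.87, Psmc6 -1.07, Psmd12 -0.26, Psmd6 -0.17 and Usp16 -0.22. In this fit muscle differences depend on slides taken as equal and on the gap between the large intestine arrays. With that block the higher calls numbered 131 and the lower calls 164, of which 41 and 32 were shared with the main ones, the lower calls in muscle 25 and in large intestine 34, and the 19S subunits higher in muscle 2, of which Psmd8 was among the 6 given. With the block in 12 tissues, chosen after seeing the data, 13 genes were higher and 8 lower in muscle, and 2 19S subunits were higher. Scan day as a fixed block gave 65 lower calls in all and 12 in muscle, median centring 11 19S subunits higher in muscle, Cy3 alone 3 genes lower in muscle, array weights 12 lower in large intestine, and the fit without large intestine, fat and bone, also chosen after seeing the data, 16 lower calls. Without a minimum difference there were 197 higher and 205 lower calls, and with one of 2 there were 9 and 4. The causes were not tested.

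Leaving out 1 array at a time gave 71 to 81 genes differing among tissues, 56 to 65 higher calls, 20 to 52 lower calls, 17 to 20 genes higher and 3 to 5 lower in muscle (3 without muscle replicate 1), 5 to 6 19S subunits higher in muscle and 0 to 34 genes lower in large intestine. The lower calls were 20 without large intestine replicate 2, and the genes lower in large intestine were 0 without replicate 2 and 34 without replicate 1.

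With the replicate number as a block the counts were 61 higher and 40 lower calls, 20 and 5 in muscle. Over the 105 pairs of tissues the deviations of same-numbered arrays correlated between -0.248 and 0.343 (median 0.0479), so the numbers were not taken as pairs. Signal over background limits little here, since 80 of the 81 genes were above it on every array.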
